A study of Homo sapiens with 9 samples.

Results

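The collagen genes were taken as every row of the count table whose symbol has the form COL, a number, A and a number, which gave 44 of 21170 features. The other 8 rows that begin with COL were left out. Messenger RNA of HaCaT cells, a spontaneously immortalised line of human skin keratinocytes, had been sequenced after polyA selection in 9 libraries. Of these, 3 came from cells overexpressing a mutant FTO that lacks demethylase activity (mut-FTO), 3 from cells overexpressing wild-type FTO (FTO) and 3 from cells with an empty vector (Vector). FTO removes methyl groups from adenosine in RNA. The labels do not give the mutation, the vector's promoter, the time after transfer or the number of clones, and whether each library of a group came from its own culture is not stated. The p-values therefore rest on library-to-library spread that may be technical. The construct and any other trait of the cells that carry it cannot be told apart. The columns of the table carry letter codes. Vector is set apart from the other groups by the counts of FTO itself, but the match of columns to mut-FTO and FTO rests on the letters alone.

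Collagens are extracellular proteins in which 3 chains wind into a triple helix, and each gene encodes 1 chain. Fibrillar collagens form the cables of connective tissue and are made mostly by fibroblasts. Type IV collagen forms the sheet of the basement membrane, to which basal keratinocytes are fixed by hemidesmosomes containing collagen XVII, and anchoring fibrils of collagen VII tie that sheet to the dermis below.

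Depth was 32222203 to 37846027 counts per library. Levels are given as CPM, counts scaled to a common library size, by the TMM method, and levels of different genes are compared only as CPM per kilobase of transcript. FTO had 49.7, 82.7 and 64.3 CPM in mut-FTO cells, 69.6, 77.1 and 62.6 CPM in FTO cells and 18.4, 17.0 and 25.8 CPM in Vector cells, and these counts do not separate the introduced from the cell's own transcript. Vector replicate 3 stood apart from the other Vector libraries, with 14.97% of its counts from mitochondrial genes (95% Wilson interval 14.96% to 14.98%) against 4.161% and 4.203% in Vector replicates 1 and 2. In the mut-FTO group, replicate 2 had 7.446% mitochondrial counts against 5.522% and 5.774% in replicates 1 and 3, and 3.169% of its counts in assembled loci without a gene name against 0.8652% and 0.7912%. Calls of collagen genes that change without Vector replicate 3 are given beside the gene.

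Of the 44 collagen genes, 22 had enough counts to be tested, 14 had counts in at least 1 library but too few to test, and 8 had no count in any of the 9 libraries. The 8 without a count were COL2A1, the cartilage collagen, and COL6A5, COL9A1, COL14A1, COL19A1, COL20A1, COL21A1 and COL23A1. Basement membrane genes were the best represented, with 9 of 10 tested, against 5 of 11 fibrillar genes and 8 of 23 other collagens. In the fibrillar class COL3A1 had 39 counts over all 9 libraries, COL11A2 had 29, COL1A2 had 20, COL24A1 had 4 and COL11A1 had 2. COL15A1, a basement membrane component, had 47. The 8 low members of the last class had between 2 and 21 counts each.

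Collagen XVII, the transmembrane collagen of the hemidesmosome, dominated the class. All collagens together took 0.126% ± 0.0120 of the counts in mut-FTO cells, 0.135% ± 0.0129 in FTO cells and 0.176% ± 0.0310 in Vector cells (SD, n = 3 each). COL17A1 alone was 62.0% ± 0.251 of the collagen counts in mut-FTO cells, 65.3% ± 0.515 in FTO cells and 63.0% ± 0.545 in Vector cells. Per kilobase it averaged 162 CPM over the 9 libraries. COL18A1 followed at 15.6, COL4A2 at 13.8, COL7A1 at 12.9 and COL12A1 at 7.45 CPM per kilobase. The highest fibrillar member was COL27A1 at 4.07 CPM per kilobase, and COL1A1, the main chain of dermal fibrils, reached 0.921. These levels, with COL1A2 and COL3A1 near zero, go with the keratinocyte label. Of 12 fibroblast markers, DPT, PRRX1 and THY1 had no count, and the summed level of the list was 50.8 to 68.5 CPM in mut-FTO, 56.1 to 63.4 CPM in FTO and 57.5 to 70.4 CPM in Vector libraries. Most of that sum was FBLN1, a matrix glycoprotein, at 57.1 ± 9.67 CPM in mut-FTO, 53.9 ± 3.73 CPM in FTO and 57.5 ± 7.21 CPM in Vector cells. The 10 keratinocyte markers summed to 15634 to 19489 CPM in mut-FTO, 11918 to 12226 CPM in FTO and 10513 to 12130 CPM in Vector libraries, and most of each sum was KRT14 and KRT5. In bulk RNA, fewer cells of a kind and less RNA per cell cannot be told apart.

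**Figure D1:**
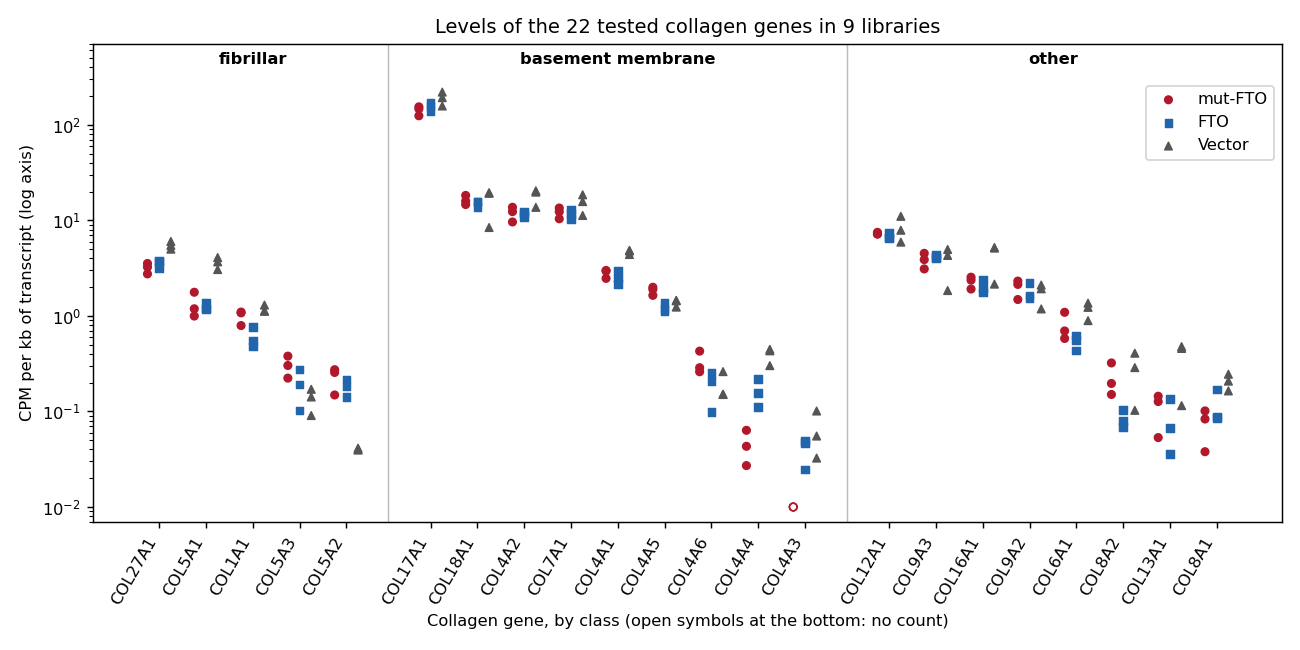
Level of each of the 22 tested collagen genes in CPM per kilobase of transcript (log axis), with 1 point per library, mut-FTO, FTO and Vector side by side, grouped by class. COL17A1 lies above all other collagens in every library, and open symbols for COL4A3 mark the 3 mut-FTO libraries with no count.

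Fewer collagens rose than fell against Vector, in both overexpressing groups. In mut-FTO against Vector 1 collagen rose, COL5A2, and 5 fell, COL5A1, COL27A1, COL4A1, COL4A3 and COL4A4 (quasi-likelihood test of edgeR, Benjamini-Hochberg adjusted over 13713 genes, threshold 0.05). Over all genes tested, 3.27% rose and 4.51% fell in that comparison. In FTO against Vector 1 rose, again COL5A2, and 2 fell, COL5A1 and COL4A1, where 0.306% of all genes rose and 0.438% fell. The median log2 fold change of the tested collagens was -0.38 in mut-FTO against Vector and -0.63 in FTO against Vector, and that of all genes was -0.00 in both. These 2 comparisons share the Vector libraries. DESeq2 called 6 collagens lower in FTO against Vector, where it called 1.44% of all genes lower.

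In mut-FTO against FTO COL4A3 and COL4A4 fell and 0 collagens rose, where 1.13% of all genes rose and 1.2% fell by the same edgeR test. COL4A3 had no count in mut-FTO cells and entered the test through the other groups. Its call was lost in 7 of 9 fits that left out 1 library, and that of COL4A4 in 6 of 9. At an unadjusted p below 0.05, 3 collagens were higher in mut-FTO cells, COL4A5, COL1A1 and COL8A2, where 7.3% of all genes were. DESeq2 also called 0 higher, where it called 2.3% of all genes higher. The median log2 fold change was 0.13 for the collagens tested.

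The counts against Vector depended on Vector replicate 3. Without it 9 collagens fell in mut-FTO cells, where 8.41% of all genes fell, and 9 fell in FTO cells, where 2.26% fell. COL5A2 still rose in each, where 6.56% of all genes rose in mut-FTO and 1.15% in FTO cells. In mut-FTO against FTO, COL1A1 and COL4A5 then rose, where 5.63% of all genes rose, and COL4A3 and COL4A4 fell, where 4.6% fell. COL4A2, COL7A1 and COL16A1 were among the 9 in both comparisons with Vector.

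**Figure D2:**
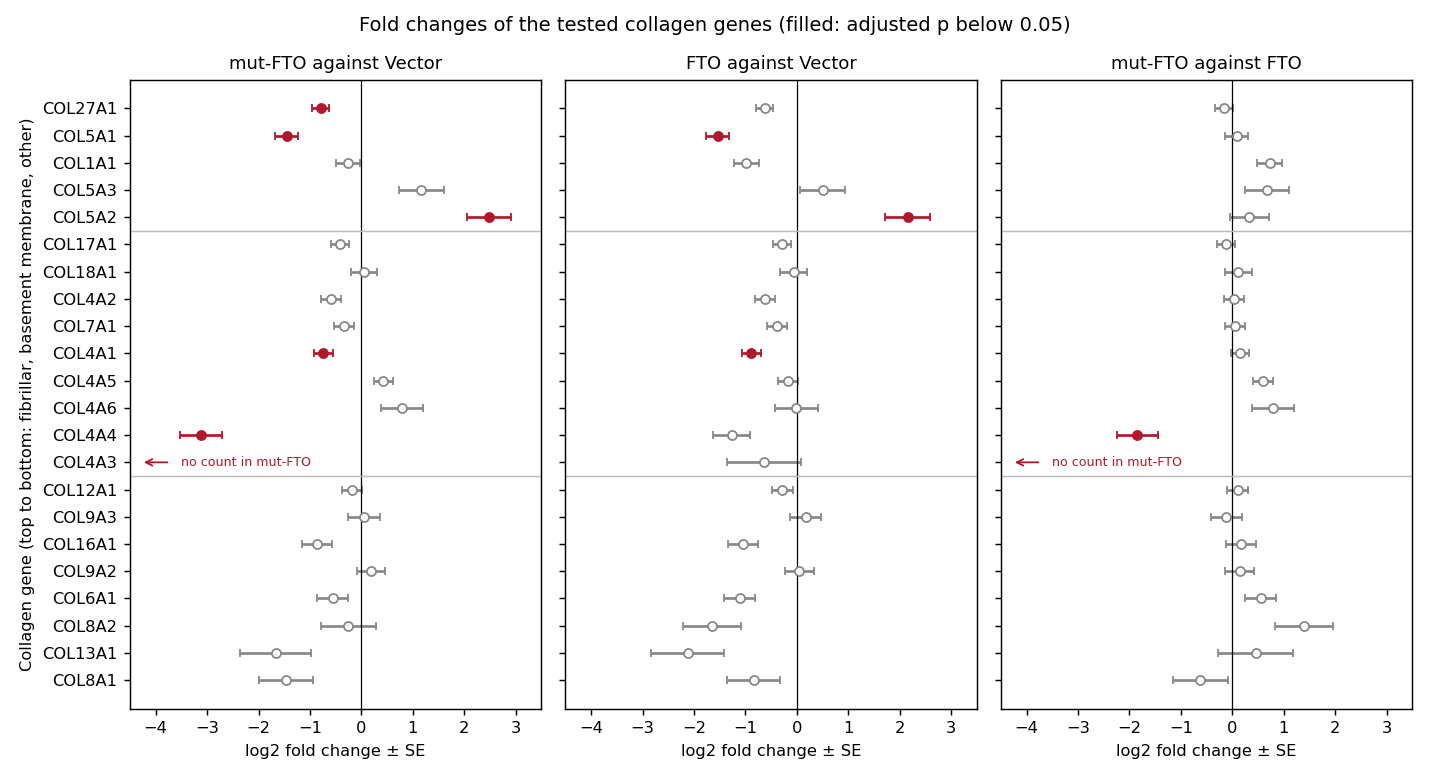
Log2 fold change ± SE from edgeR for the 22 tested collagens in mut-FTO against Vector, FTO against Vector and mut-FTO against FTO, with genes down the page by class and filled points for an adjusted p below 0.05. COL5A2 is the only filled point to the right of 0, and COL4A3 is drawn as an arrow where mut-FTO had no count.

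Among the fibrillar genes, the chains of collagen V moved in opposite directions. Collagen V starts and limits the width of type I fibrils, and its usual trimer holds the products of COL5A1 and COL5A2. COL5A1 had 8.43, 10.05 and 14.97 CPM in mut-FTO cells, 10.1, 11.5 and 9.87 CPM in FTO cells and 31.2, 34.5 and 25.9 CPM in Vector cells. Every Vector library lay above every library of the other groups, which overlapped each other. COL5A1 was 2.74-fold lower in mut-FTO than in Vector (log2 fold change -1.45, SE 0.23, edgeR adjusted p = 0.00165) and 2.91-fold lower in FTO than in Vector (-1.54, SE 0.23, edgeR adjusted p = 0.00746). The FTO call was lost without FTO replicate 1 (adjusted p = 0.0730) or 3 (0.0722). Between mut-FTO and FTO the log2 difference was 0.09 (SE 0.22, edgeR adjusted p = 0.916).

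COL5A2 had 1.81, 1.05 and 1.94 CPM in mut-FTO cells, 1.01, 1.53 and 1.29 CPM in FTO cells and 0.292, 0.280 and 0.282 CPM in Vector cells. The Vector libraries were again apart from the others, here below them, and each held 10 counts of the gene. The Vector libraries alone had too few counts to be tested, so the gene entered the test through mut-FTO and FTO. COL5A2 was 5.58-fold higher in mut-FTO than in Vector (log2 fold change 2.48, SE 0.43, edgeR adjusted p = 0.00337) and 4.44-fold higher in FTO than in Vector (2.15, SE 0.43, edgeR adjusted p = 0.0418). The FTO call did not hold when any of 7 of the 9 libraries was left out, with adjusted p between 0.0669 and 0.195.

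The ratio of the 2 chains put both changes on 1 scale. Per kilobase, COL5A1 over COL5A2 was 3.89, 7.98 and 6.46 in mut-FTO cells, 8.38, 6.28 and 6.41 in FTO cells and 89.1, 103 and 76.7 in Vector cells. The ranges of mut-FTO and FTO overlapped and lay far below that of Vector. A two-sided exact permutation test gave p = 0.1 for each overexpressing group against Vector, the smallest value 3 against 3 libraries allow, and 0.45 after Benjamini-Hochberg adjustment over 9 ratio tests. Each chain was already apart from Vector, in opposite directions, so the ratio had to be apart as well. Its p-value against Vector was thus fixed in advance and adds no support. COL5A3, which encodes another type V chain, had 1.86 ± 0.481 CPM in mut-FTO, 1.17 ± 0.535 CPM in FTO and 0.828 ± 0.250 CPM in Vector cells (SD, n = 3 each), and passed no test. An exon of COL5A3 shares 270 bases with an antisense gene, AC008742.1. Whether counting used strand is not given in the sources used here, so such reads cannot be told apart.

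**Figure D3:**
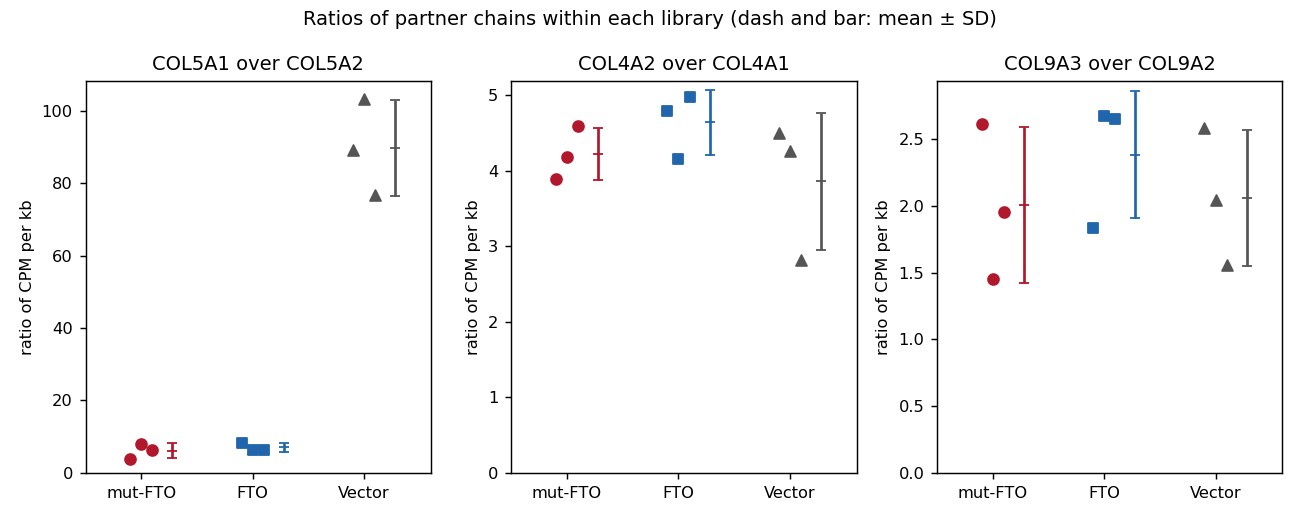
Ratio of CPM per kilobase of partner chains within each library, for COL5A1 over COL5A2, COL4A2 over COL4A1 and COL9A3 over COL9A2, with mean ± SD of 3 libraries for mut-FTO, FTO and Vector. The first ratio averages 6.11 in mut-FTO, 7.02 in FTO and 89.7 in Vector cells, and the groups overlap in the ratio of COL9A3 to COL9A2.

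COL27A1, a fibrillar collagen best known from cartilage, fell in mut-FTO cells. It had 21.4, 27.5 and 25.3 CPM in mut-FTO cells, 29.4, 28.8 and 24.8 CPM in FTO cells and 38.9, 42.6 and 46.8 CPM in Vector cells, with no overlap of either group with Vector. The log2 fold change was -0.79 in mut-FTO against Vector (SE 0.17, edgeR adjusted p = 0.0118) and -0.63 in FTO against Vector (SE 0.17, edgeR adjusted p = 0.143, 0.0169 by DESeq2, and 0.0371 without Vector replicate 3). The first call was lost without mut-FTO replicate 1 (adjusted p = 0.0502) or 3 (0.0551).

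COL1A1 passed no test in the fit of all libraries. It had 5.33, 7.23 and 7.37 CPM in mut-FTO cells, 3.21, 3.70 and 5.12 CPM in FTO cells and 7.54, 8.72 and 7.53 CPM in Vector cells, and the 3 groups did not overlap. The log2 fold change in FTO against Vector was -0.98 (SE 0.24, edgeR adjusted p = 0.103), which became 0.0253 without Vector replicate 3 and was 0.0112 by DESeq2. For mut-FTO against FTO the log2 fold change of COL1A1 was 0.73 (SE 0.24, edgeR adjusted p = 0.164), and this p-value became 0.0459 without Vector replicate 3. Its partner chain COL1A2 had 6 counts over the mut-FTO libraries, 14 over the FTO libraries and 0 over the Vector libraries.

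**Figure D4:**
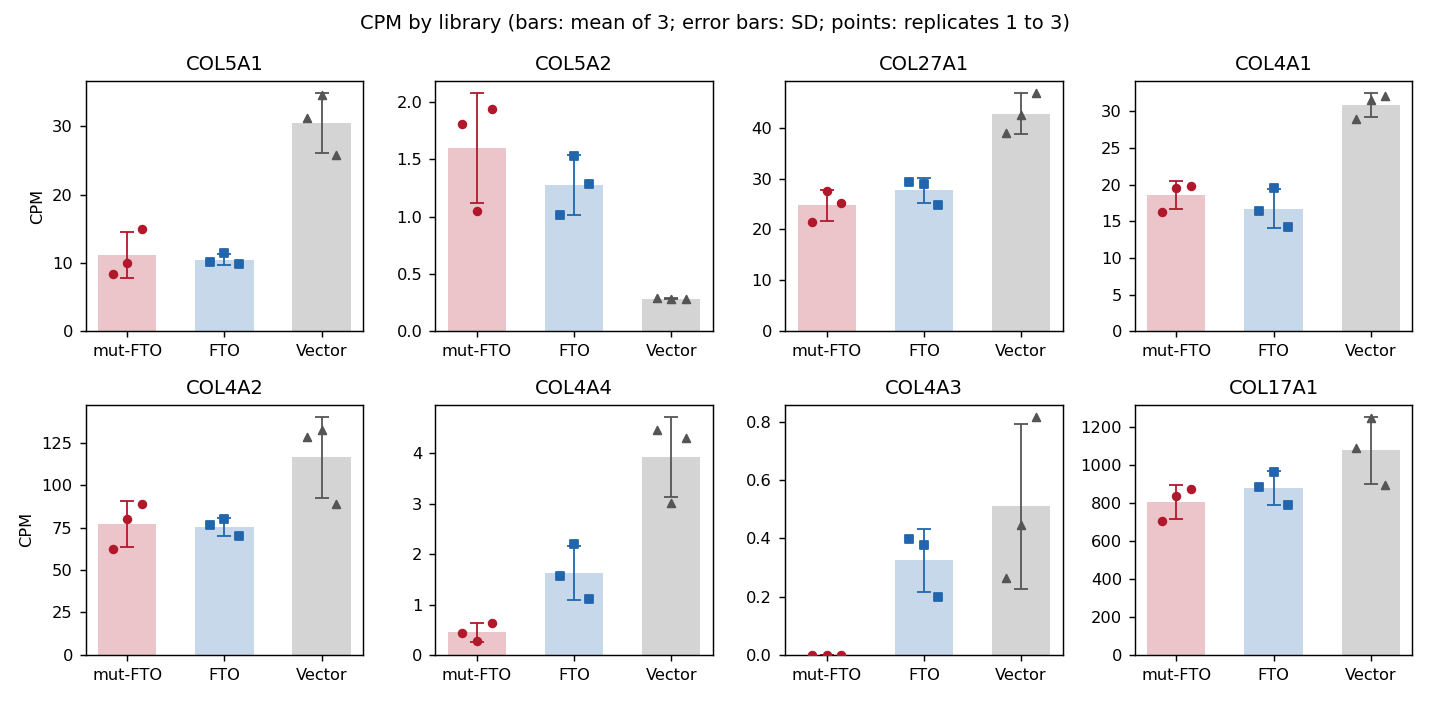
CPM of 8 collagen genes by library, with bars at the mean of 3 libraries and error bars of 1 SD, for mut-FTO, FTO and Vector from left to right. COL5A1, COL27A1 and COL4A1 are highest in the 3 Vector libraries, COL5A2 is lowest there, and COL4A3 is at 0 in the 3 mut-FTO libraries.

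Type IV collagen genes lie in head-to-head pairs, so the partners of a pair are read in opposite directions from neighbouring start sites. The promoter windows of the pair COL4A3 and COL4A4, and that of COL4A1, are shown because the 3 genes fell and because the windows of partners overlap. RefSeq windows (GRCh38.p14, 300 bases around each start) were found for 32 of the 44 collagens. COL4A3 is at chr2:227164374-227164673 on the plus strand and COL4A4 at chr2:227164156-227164455 on the minus strand, with starts 419 bases apart. COL4A1 is at chr13:110307108-110307407 on the minus strand, with its start 127 bases from that of COL4A2. Capitals mark the bases shared with the partner's window, 82 in the first pair and 226 in the second.
COL4A3: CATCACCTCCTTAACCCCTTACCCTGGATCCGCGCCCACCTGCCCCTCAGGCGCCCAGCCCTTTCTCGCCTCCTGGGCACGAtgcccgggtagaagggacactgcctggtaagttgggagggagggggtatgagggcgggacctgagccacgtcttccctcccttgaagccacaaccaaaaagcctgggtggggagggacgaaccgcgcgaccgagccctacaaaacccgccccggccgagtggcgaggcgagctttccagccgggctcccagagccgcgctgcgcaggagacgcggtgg
COL4A4: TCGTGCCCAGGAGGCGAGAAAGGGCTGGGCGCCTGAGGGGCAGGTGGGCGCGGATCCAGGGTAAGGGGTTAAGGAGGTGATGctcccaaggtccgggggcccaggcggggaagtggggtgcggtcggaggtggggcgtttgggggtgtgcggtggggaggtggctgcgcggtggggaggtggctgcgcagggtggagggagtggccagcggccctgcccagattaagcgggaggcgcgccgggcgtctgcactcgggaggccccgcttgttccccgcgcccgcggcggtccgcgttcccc
COL4A1: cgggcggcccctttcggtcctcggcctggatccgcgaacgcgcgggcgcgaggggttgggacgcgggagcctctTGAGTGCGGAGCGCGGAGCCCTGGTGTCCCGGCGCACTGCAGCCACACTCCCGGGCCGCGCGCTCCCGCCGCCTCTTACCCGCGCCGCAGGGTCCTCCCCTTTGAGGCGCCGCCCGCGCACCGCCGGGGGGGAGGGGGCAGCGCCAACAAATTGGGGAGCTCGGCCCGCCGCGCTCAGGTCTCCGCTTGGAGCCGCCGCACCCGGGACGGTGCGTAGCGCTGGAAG
On both strands together, the letters GGGCGG of a GC box were found 2 times in the COL4A3 window, 2 times in that of COL4A1 and not in that of COL4A4. They were present in 45.0% of all 35116 RefSeq windows. CCAAT was found 1 time in the COL4A1 window, and in 34.6% of all windows. Neither TATAAA nor TGANTCA, the AP-1 letters, was in any of the 3, and they were present in only 11.5% and 7.71% of all windows. A match of letters describes the window and shows no binding.

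COL4A3 and COL4A4 were lowest in mut-FTO cells. Their products join that of COL4A5 in the type IV network of kidney and other specialised basement membranes. COL4A4 had 0.433, 0.272 and 0.636 CPM in mut-FTO cells, 1.57, 2.20 and 1.12 CPM in FTO cells and 4.47, 3.02 and 4.31 CPM in Vector cells. The 3 groups did not overlap, with FTO cells between the others. COL4A4 entered the test through FTO and Vector, as mut-FTO replicate 2 held only 8 counts. COL4A4 was 8.68-fold lower in mut-FTO than in Vector (log2 fold change -3.12, SE 0.40, edgeR adjusted p = 0.000443) and 3.60-fold lower in mut-FTO than in FTO (-1.85, SE 0.40, edgeR adjusted p = 0.0298). In FTO against Vector the log2 fold change was -1.27 (SE 0.36, edgeR adjusted p = 0.175). It was -1.21 (edgeR adjusted p = 0.0414) with Vector replicate 3 and mut-FTO replicate 2 both left out. The difference between mut-FTO and FTO lost its call when any 1 of the 6 libraries of those groups was left out, with adjusted p between 0.0574 and 0.153.

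COL4A3 had no count in the 3 mut-FTO libraries. It had 0.398, 0.376 and 0.2003 CPM in FTO cells and 0.263, 0.447 and 0.818 CPM in Vector cells, from 36 and 54 counts over the 3 libraries of each. The ranges of FTO and Vector overlapped. With 3 counts as the floor over the mut-FTO group, the bound for COL4A3 was 18.1-fold lower in mut-FTO than in Vector (edgeR adjusted p = 0.00949). Against FTO the bound was 11.3-fold lower (edgeR adjusted p = 0.0445). Both bounds take the Vector and FTO totals as exact. The second call was lost in 7 of 9 fits that left out 1 library, with adjusted p between 0.0789 and 0.148. The gene entered the test through FTO and Vector, where it had counts. It shares 120 exon bases with an antisense gene, AC097662.1.

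COL4A5, the X-linked partner of both, did not follow them. It had 12.3, 10.6 and 12.9 CPM in mut-FTO cells, 8.79, 7.70 and 7.24 CPM in FTO cells and 8.01, 9.31 and 9.42 CPM in Vector cells. The mut-FTO libraries lay above all others. The log2 fold change was 0.59 in mut-FTO against FTO (SE 0.19, edgeR adjusted p = 0.143), which became 0.0262 without Vector replicate 3. COL4A6, the head-to-head neighbour of COL4A5, had 1.76, 2.89 and 1.94 CPM in mut-FTO cells, 1.70, 0.671 and 1.40 CPM in FTO cells and 1.02, 1.76 and 1.02 CPM in Vector cells, and was not called.

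COL4A1 and COL4A2 encode the chains of the type IV network found in nearly all basement membranes. COL4A1 had 16.3, 19.5 and 19.8 CPM in mut-FTO cells, 16.3, 19.6 and 14.3 CPM in FTO cells and 29.02, 31.6 and 32.0 CPM in Vector cells. Both overexpressing groups lay below Vector and overlapped each other. It was 1.67-fold lower in mut-FTO than in Vector (log2 fold change -0.74, SE 0.18, edgeR adjusted p = 0.0231) and 1.84-fold lower in FTO than in Vector (-0.88, SE 0.18, edgeR adjusted p = 0.0434). Both calls were close to the threshold. The mut-FTO call was lost without any 1 mut-FTO library or without Vector replicate 2 (adjusted p 0.0569 to 0.0806), and the FTO call was lost without any 1 library other than Vector replicate 3 (0.0552 to 0.254).

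COL4A2 had 62.4, 80.1 and 88.9 CPM in mut-FTO cells, 76.8, 80.0 and 69.8 CPM in FTO cells and 128, 132 and 88.7 CPM in Vector cells. Vector replicate 3 lay among the values of the mut-FTO libraries. The log2 fold change was -0.59 in mut-FTO against Vector (SE 0.19, edgeR adjusted p = 0.0822) and -0.62 in FTO against Vector (SE 0.19, edgeR adjusted p = 0.220). Without Vector replicate 3 these adjusted p-values became 0.000988 and 0.00292. DESeq2 called the mut-FTO difference with all libraries (adjusted p = 0.0372). COL4A2 over COL4A1, per kilobase, averaged 4.22 in mut-FTO, 4.64 in FTO and 3.86 in Vector cells, and the exact permutation p was 0.3 to 0.7 in the 3 comparisons.

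COL17A1 had 706, 835 and 876 CPM in mut-FTO cells, 888, 963 and 788 CPM in FTO cells and 1092, 1249 and 894 CPM in Vector cells. The mut-FTO libraries lay below all Vector libraries, and the FTO libraries overlapped both groups. The log2 fold change was -0.42 in mut-FTO against Vector (SE 0.17, edgeR adjusted p = 0.184) and -0.29 in FTO against Vector (SE 0.17, edgeR adjusted p = 0.531). Without Vector replicate 3 the mut-FTO value passed the threshold (adjusted p = 0.00762) and the FTO value did not (0.0756). With mut-FTO replicate 2 left out as well, the FTO value also passed (log2 fold change -0.43, edgeR adjusted p = 0.0247).

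COL7A1, the anchoring fibril collagen, had 96.2, 125 and 114 CPM in mut-FTO cells, 108, 120 and 95.8 CPM in FTO cells and 146, 171 and 104 CPM in Vector cells. It was not called against Vector in either group (edgeR adjusted p = 0.362 for mut-FTO and 0.460 for FTO), but was lower in both without Vector replicate 3 (0.0165 and 0.0267). COL18A1, whose product releases endostatin, had 96.4, 105 and 120 CPM in mut-FTO cells, 104, 102 and 90.2 CPM in FTO cells and 126, 128 and 55.4 CPM in Vector cells. Vector replicate 3 was the lowest of the 9 libraries for COL18A1, and no comparison was called. With both Vector replicate 3 and mut-FTO replicate 2 left out, COL18A1 was called lower in FTO against Vector (log2 fold change -0.38, edgeR adjusted p = 0.0475). COL18A1 shares 1401 exon bases with SLC19A1 on the other strand, so its counts may hold reads of that gene. Exon overlaps with genes on the other strand were also found for COL16A1 (117 bases), COL4A2 (81 and 14) and COL9A3 (45).

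Of the 8 tested collagens outside the fibrillar and basement membrane classes, 0 were called in any comparison by edgeR. DESeq2 called COL16A1 lower in mut-FTO and in FTO against Vector (adjusted p = 0.0419 and 0.0330) and COL6A1 lower in FTO against Vector. At an unadjusted p below 0.05, 0 of the 8 were higher and 3 lower in mut-FTO against Vector, where 10.1% of all genes were higher and 11% lower. In FTO against Vector 0 were higher and 4 lower, where 4.94% were higher and 6.95% lower. In mut-FTO against FTO 1 was higher and 0 lower, where 6.69% of all genes were lower. Among the members lower against Vector, COL13A1 had enough counts for the filter in every library only in Vector, where it was high. COL8A1, lower in mut-FTO cells, had enough in FTO and Vector but not in mut-FTO replicate 1. The tallies against Vector are therefore a description and no support. COL12A1, which binds to fibril surfaces, had 84.3, 87.7 and 84.2 CPM in mut-FTO cells, 77.2, 85.8 and 76.0 CPM in FTO cells and 69.3, 92.3 and 129 CPM in Vector cells. The Vector range enclosed both others. COL16A1, also fibril-associated, had 10.9, 14.6 and 13.6 CPM in mut-FTO cells, 11.1, 13.5 and 10.04 CPM in FTO cells and 29.6, 29.4 and 12.3 CPM in Vector cells. Its log2 fold change was -0.87 in mut-FTO against Vector (SE 0.29, edgeR adjusted p = 0.0984) and -1.04 in FTO against Vector (SE 0.29, edgeR adjusted p = 0.177), and these p-values became 0.000111 and 0.000171 without Vector replicate 3.

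COL9A3 and COL9A2 encode chains of collagen IX, a cartilage fibril partner whose remaining chain gene, COL9A1, had no count. COL9A3 had 9.68, 7.74 and 11.3 CPM in mut-FTO cells, 10.01, 10.2 and 10.8 CPM in FTO cells and 12.4, 10.7 and 4.60 CPM in Vector cells. COL9A2 had 4.24, 6.11 and 6.62 CPM in mut-FTO cells, 6.27, 4.40 and 4.69 CPM in FTO cells and 5.49, 6.01 and 3.38 CPM in Vector cells. All groups overlapped for both genes. COL6A1 had 2.46, 4.62 and 2.95 CPM in mut-FTO cells, 1.83, 2.36 and 2.63 CPM in FTO cells and 5.201, 5.76 and 3.78 CPM in Vector cells, while its partners COL6A2 and COL6A3 had 13 and 6 counts over all libraries. The FTO libraries lay below those of Vector for COL6A1 (log2 fold change -1.11, SE 0.30, edgeR adjusted p = 0.151, and 0.0229 without Vector replicate 3). Lowest in the class were COL8A1 and COL8A2, short-chain network collagens, and COL13A1, a transmembrane collagen, with 181 to 278 counts each over all libraries. COL8A2 had 0.703, 0.917 and 1.502 CPM in mut-FTO cells, 0.372, 0.322 and 0.486 CPM in FTO cells and 1.90, 1.34 and 0.479 CPM in Vector cells. Vector replicate 3 lay within the FTO range. The log2 fold change of COL8A2 in FTO against Vector was -1.65 (SE 0.56, edgeR adjusted p = 0.272), and it was -2.06 (0.0362) without Vector replicate 3. COL13A1 averaged 0.345 ± 0.154 CPM in mut-FTO, 0.252 ± 0.161 CPM in FTO and 1.11 ± 0.648 CPM in Vector cells, and COL8A1 averaged 0.423 ± 0.186 CPM in mut-FTO, 0.652 ± 0.272 CPM in FTO and 1.17 ± 0.232 CPM in Vector cells (SD, n = 3 each). Of the alternatives run, COL13A1 was called lower in FTO against Vector only when Vector replicate 3 and mut-FTO replicate 2 were both left out (edgeR adjusted p = 0.0218). This gene had enough counts for the filter in every library only in Vector.

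Genes that process, bind or cleave collagen were read from the same fit. Of 32 genes for collagen processing and crosslinking, 22 were tested. In mut-FTO against Vector 1 rose, LOX, the lysyl oxidase that starts crosslinks, and 2 fell, where 3.27% of all genes rose and 4.51% fell. LOX averaged 34.1 ± 3.21 CPM in mut-FTO, 22.9 ± 2.31 CPM in FTO and 10.2 ± 3.77 CPM in Vector cells (SD, n = 3 each), and rose in both overexpressing groups (log2 fold change 1.74 for mut-FTO, edgeR adjusted p = 0.000708, and 1.17 for FTO, 0.0452). The FTO call was lost without any 1 library other than Vector replicate 3 (adjusted p 0.0797 to 0.221). PXDN, the peroxidase that crosslinks type IV collagen, averaged 0.295 ± 0.372 CPM in mut-FTO, 3.43 ± 0.472 CPM in FTO and 5.33 ± 0.711 CPM in Vector cells. It entered the test through FTO and Vector, where it was high. It fell in mut-FTO cells against both other groups (log2 fold change -4.23 against Vector, edgeR adjusted p = 0.00215, and -3.60 against FTO, 0.0156), as did TLL2, a procollagen proteinase (-1.68, 0.00162, and -1.22, 0.0298). Against FTO, the PXDN call was lost in 4 of 9 fits without 1 library (adjusted p up to 0.106) and the TLL2 call in 7 (up to 0.169), in each case including the loss of any 1 FTO library. Without Vector replicate 3, 5 genes of this list fell in mut-FTO against Vector, where 8.41% of all genes fell.

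Of 10 collagen receptors, 6 were tested and 1 fell in mut-FTO against Vector, where 4.51% of all genes fell. This was ITGA2, the integrin chain that binds collagen, at 105 ± 10.8 CPM in mut-FTO, 163 ± 9.13 CPM in FTO and 204 ± 70.2 CPM in Vector cells (log2 fold change -0.95 in mut-FTO against Vector, edgeR adjusted p = 0.0161, and 0.0754 to 0.0826 without mut-FTO replicate 2 or 3). Of 8 collagen-cleaving proteases, 7 were tested. In mut-FTO against Vector 1 rose and 2 fell, where 3.27% of all genes rose and 4.51% fell. MMP13, a collagenase, rose (389 ± 32.6 CPM in mut-FTO and 76.1 ± 42.6 CPM in Vector cells, log2 fold change 2.35, edgeR adjusted p = 0.000504). MMP13 had 181 ± 17.4 CPM in FTO cells (log2 fold change 1.25 against Vector, edgeR adjusted p = 0.0940). Without Vector replicate 3, 2 proteases rose in FTO against Vector, where 1.15% of all genes rose. The gelatinases MMP9 and MMP2 fell in mut-FTO against Vector (log2 fold change -2.40, edgeR adjusted p = 0.00208, and -0.80, 0.00949), and MMP9 also fell in FTO against Vector (-2.77, edgeR adjusted p = 0.00569). The MMP2 call was lost without mut-FTO replicate 3 (adjusted p = 0.0563), and the FTO call of MMP9 without FTO replicate 3 (0.0539).

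Of 14 laminin and hemidesmosome genes, 13 were tested. LAMA3, a chain of the laminin that meets collagen XVII and VII at the basement membrane, averaged 167 ± 7.20 CPM in mut-FTO, 250 ± 12.5 CPM in FTO and 421 ± 75.5 CPM in Vector cells (SD, n = 3 each). It fell in mut-FTO against Vector (log2 fold change -1.33, edgeR adjusted p = 0.000281), as did LAMB1, another laminin chain (-1.58, 0.000427), and both calls held in all 9 fits without 1 library. Of all genes, 4.51% fell in that comparison. Log2 fold changes of the members not called ran from -0.40 for ITGA6 to 0.42 for LAMA5, with LAMB3 at 0.009, and the median of the list was -0.26. In FTO against Vector 0 of the laminin and hemidesmosome genes were called by edgeR, 5 were lower at an unadjusted p below 0.05 (6.95% of all genes), 2 were called lower by DESeq2 (1.44%), and 2 fell without Vector replicate 3 (2.26%). Of the 10 keratinocyte markers KRT1, KRT14 and KRT5 rose in mut-FTO against Vector, where 3.27% of all genes rose. The 7 not called had log2 fold changes from -0.50 for TP63 to 0.60 for KRT10, and the median of the list was -0.00. KRT1, a keratin of differentiating cells, averaged 90.3 ± 4.01 CPM in mut-FTO, 22.4 ± 2.34 CPM in FTO and 3.63 ± 0.870 CPM in Vector cells. KRT1 rose in all 3 comparisons. The KRT5 call was lost in 7 of 9 fits without 1 library and that of KRT14 without mut-FTO replicate 2 (adjusted p = 0.0512). Of the 7 fibroblast markers tested, 0 were called by edgeR or DESeq2 in any comparison. At an unadjusted edgeR p below 0.05, 1 was lower in mut-FTO against Vector (11% of all genes) and 1 in mut-FTO against FTO (6.69%). The part of cell state in the collagen changes was not tested.

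FTO acts on methylated adenosine, which is deposited mainly within a short consensus that includes the letters GGACT. The longest coding transcripts of the 22 tested collagens (GENCODE release 29) held a median of 2.04 GGACT per kilobase, against 0.934 in 12531 of the 13713 tested genes for which a transcript was matched. The median was 1.26 in the 22 collagens not tested and 1.56 in all 44. Of those tested, COL4A5 had the most, 2.93 per kilobase, and COL1A1 the fewest, 0.743. COL5A1 had 1.42 and COL5A2 0.989. These are counts of letters in the annotation, not adjusted for base composition or coding share, and methylation was not measured here.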

How the data were processed

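Reads of 9 polyA RNA libraries had been processed with HISAT2 and with StringTie, tools named in the submitters' processing notes, which also give the mouse build mm10 although cells and symbols are human. Sources used here do not state versions, the counting program, the strand setting or the annotation. The deposited values are whole-number counts per gene, not normalized. Among values from 1 to 6, even ones were more frequent (2631 of 2 against 739 of 1). All 9 columns were used, and libraries of a group differed by more than sampling noise.

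Differences were tested by edgeR 4.0.16 under R 4.3.3 (DESeq2 1.42.0 as an alternative). Genes passing filterByExpr by group (minimum count 10, minimum total 15), 13713 in all, entered 1 robust quasi-likelihood model of the 3 groups with TMM scaling. Adjusted p-values are Benjamini-Hochberg over these genes, with a threshold of 0.05, and standard errors were derived from the fold change and F statistic. The procedure was tested on simulated data. Lengths are those of the longest protein-coding GENCODE 29 transcript, matched for all 44 collagens. Bounds set a group without counts to 3 counts in total, over library totals. The excess of even counts was not taken into account in that floor. Bounds take the counts of the other group as exact and include no counting error of it. Intervals include only the counting error, and reads lacking molecular identifiers can repeat a molecule.

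Members, classes and lists were chosen with earlier results of these data known. Values per library are given for called collagens, COL5A1, COL17A1, the 2 highest per kilobase in each class, and their partner chains, with others added after their values were seen. Of the other lists, called genes are named, except for 1 result that is not reported here. Alternatives were other scaling and filters, DESeq2, only the libraries compared, a replicate block, and leaving out libraries.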

Additional observations from a re-analysis of the deposited data

How the results depend on the processing

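Shares of all genes tested that were called in the same fit and direction stand in parentheses. In mut-FTO against Vector 5 collagens were called lower, 2 with only the 6 libraries compared (2.8%), 10 without Vector replicate 3 and mut-FTO replicate 2 together (9.62%), and 3 to 9 when 1 library was left out (2.59% to 8.41%). The count higher there was 1 in every alternative run. With only the 6 libraries, COL4A3 had too few counts to be tested in that comparison and in mut-FTO against FTO. In FTO against Vector, the count higher (1) was 0 with only the 6 libraries (0.134%), 0 with a replicate block (0.233%) and 0 to 1 when 1 library was left out (0.122% to 1.15%). The count lower (2) was 6 by DESeq2 (1.44%), 1 with only the 6 libraries (0.172%), 1 with the replicate block (0.255%), 13 without the pair of libraries named above (4.19%), and 0 to 9 when 1 library was left out (0.0715% to 2.26%). In mut-FTO against FTO, the count higher (0) was 1 with only the 6 libraries (4.86%), 1 without the pair of libraries (3.97%), and 0 to 2 when 1 was left out (0.172% to 5.63%). The count lower (2) was 1 with only the 6 libraries (4.24%), 0 with the replicate block (0.853%; adjusted p = 0.105 for COL4A3 and 0.0658 for COL4A4) and 0 to 2 when 1 was left out (0.329% to 4.6%). The cause was not tested. Deviations from the group mean of log2 CPM correlated between -0.127 and 0.106 in same-numbered libraries of different groups. In libraries with different numbers they correlated between -0.116 and 0.151. The numbers were not treated as pairing, as the labels do not say that they mark a shared culture or day.

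For single collagens, 1072 alternative values kept direction and side of the threshold, 44 lost the call and 37 gained it. Another 33 changed sign, in 13 gene comparisons, and 0 of these were called in either fit. Without that pair of libraries, log2 fold changes in mut-FTO against Vector became 0.034 for COL12A1, -0.26 for COL18A1, -0.11 for COL9A2 and -0.17 for COL9A3. Those in FTO against Vector became -0.18 for COL9A2 and -0.17 for COL9A3, and in mut-FTO against FTO -0.013 for COL4A2, -0.052 for COL7A1 and 0.00017 for COL9A3. Scaling by library size alone gave -0.027 for COL18A1 and -0.016 for COL9A3 in mut-FTO against Vector and -0.013 for COL4A2 in mut-FTO against FTO, and the replicate block gave 0.031 for COL4A6 in FTO against Vector. When 1 library was left out, log2 fold changes in mut-FTO against Vector spanned -0.38 to 0.072 for COL12A1, -0.26 to 0.23 for COL18A1, -0.65 to 0.19 for COL8A2, -0.037 to 0.36 for COL9A2 and -0.28 to 0.32 for COL9A3. Those of FTO against Vector spanned -0.39 to 0.12 for COL18A1, -0.29 to 0.30 for COL4A6, -0.19 to 0.21 for COL9A2 and -0.18 to 0.44 for COL9A3. In mut-FTO against FTO they spanned -0.086 to 0.16 for COL4A2, -0.18 to 0.25 for COL5A1, -0.032 to 0.14 for COL7A1 and -0.25 to 0.020 for COL9A3. COL4A3, with 90 counts over all libraries, is limited by depth.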
